A study of Mus musculus with 8 samples.

Results

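These are 1091 regions of the mouse genome that carried a called peak of acetylated histone H3 (H3ac) on day 4 and day 6 of embryonic stem cell differentiation and none on day 2. They were chosen by measured values: a day 4 peak was taken if it shared at least 1 bp with a day 6 peak and with no day 2 peak. They make up 8.43% of the 12943 day 4 H3ac peaks on chromosomes 1 to 19 and X, with a 95% Wilson interval of 7.96 to 8.92%. That they lack a day 2 peak and have a day 6 peak follows from the choice and is no result. The cells were mouse embryonic stem cells of strain 129/Ola, plated on gelatin and differentiated in N2B27, a serum-free medium in which such cells take up neural fates. Chromatin was precipitated with an H3ac antibody on days 2, 4 and 6, and on day 2 also with an anti-FLAG antibody against HDAC1, labelled 3 FLAG-HDAC1. All 8 libraries came from these differentiating cells, 4 from precipitated chromatin and 4 from input, with 1 library per target and day. The peak lists hold no second library of any group, so no test between days was possible and intervals cover counting error over peaks only. HDAC1 was measured on day 2 alone, before these regions were called as acetylated.

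Acetyl groups on the tail of histone H3 are placed by histone acetyltransferases and mark the promoters and enhancers of active genes. HDAC1 is a histone deacetylase that removes them, as the catalytic subunit of complexes such as NuRD, Sin3 and CoREST, and it is found at many active promoters as well as at silent genes. When embryonic stem cells leave pluripotency towards the neural lineage, regulatory regions of neural transcription factors, guidance molecules and cell adhesion genes become acetylated while those of pluripotency genes lose the mark. In bulk chromatin, fewer cells of a type and less acetylation per cell cannot be told apart.

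Among the strongest of these regions are 2 that contain miRNA hairpins, which is why their mature sequences are shown. The day 4 peak at the joined ends of Urm1 and Cercam covered the hairpins Mir219a-2 and Mir219b, and the peak at Thbs3 covered Mir92b. A weaker peak, with a day 4 score of 50.04, lay over Mir17, Mir18 and Mir19a of the miR-17-92 cluster. Mir20a, Mir19b-1 and Mir92-1, the hairpin of miR-92a, lay 33, 181 and 303 bp beyond its edge. The overlapping day 6 peak ended between Mir17 and Mir18, and a day 2 peak lay 337 bp from the region. Capitals mark the seed, bases 2 to 8, and the sequences are RefSeq's for build GRCm38.p6, written 5′ to 3′.
miR-219a-5p: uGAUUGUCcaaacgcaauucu
miR-92b-3p: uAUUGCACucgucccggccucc
miR-92a-3p: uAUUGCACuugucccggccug
miR-17-5p: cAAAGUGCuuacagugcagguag
miR-20a-5p: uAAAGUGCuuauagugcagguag
miR-19a-3p: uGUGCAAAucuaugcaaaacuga
miR-19b-3p: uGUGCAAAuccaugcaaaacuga
The miRNAs miR-92b-3p and miR-92a-3p, from different chromosomes, share the seed AUUGCAC. The pair miR-17-5p and miR-20a-5p shares AAAGUGC, and the pair miR-19a-3p and miR-19b-3p shares GUGCAAA. RefSeq gives miR-219a-5p for the hairpin Mir219a-2 on chromosome 2 and also for Mir219a-1 on chromosome 17, which lay 986 bp from another of the regions, one with a day 4 score of 123.08. In all, 7 of the 1005 hairpins in the RefSeq table, 0.697%, lay under a region. That number was also 7 for day 4 peaks without a day 2 or day 6 peak, 24 for peaks of all 3 days and 14 for peaks of days 2 and 4.

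The promoters of 5 genes under regions described here are shown with their CpG dinucleotides. The median over the 330 promoters that overlapped a region was 26 CpG dinucleotides, and 4 of the 5 hold fewer. Each line gives 250 bases before to 50 bases after the RefSeq start (GRCm38.p6, whose coordinates are those of mm10), on the gene's strand, with CpG dinucleotides in capitals.
Meis1 promoter, chr11:19018920-19019219, minus strand: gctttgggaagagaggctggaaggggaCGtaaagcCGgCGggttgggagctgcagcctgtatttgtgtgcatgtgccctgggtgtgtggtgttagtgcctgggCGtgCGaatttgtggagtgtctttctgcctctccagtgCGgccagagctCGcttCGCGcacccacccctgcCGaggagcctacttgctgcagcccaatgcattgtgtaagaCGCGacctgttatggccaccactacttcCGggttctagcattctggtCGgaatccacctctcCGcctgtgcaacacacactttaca
Kirrel promoter, chr3:87174488-87174787, minus strand: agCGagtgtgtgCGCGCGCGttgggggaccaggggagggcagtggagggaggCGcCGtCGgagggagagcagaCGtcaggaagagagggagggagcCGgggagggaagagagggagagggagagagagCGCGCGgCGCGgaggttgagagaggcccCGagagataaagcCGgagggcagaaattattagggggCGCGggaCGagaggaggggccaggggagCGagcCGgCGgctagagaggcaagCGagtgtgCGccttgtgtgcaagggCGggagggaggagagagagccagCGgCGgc
Efnb1 promoter, chrX:99135811-99136110, plus strand: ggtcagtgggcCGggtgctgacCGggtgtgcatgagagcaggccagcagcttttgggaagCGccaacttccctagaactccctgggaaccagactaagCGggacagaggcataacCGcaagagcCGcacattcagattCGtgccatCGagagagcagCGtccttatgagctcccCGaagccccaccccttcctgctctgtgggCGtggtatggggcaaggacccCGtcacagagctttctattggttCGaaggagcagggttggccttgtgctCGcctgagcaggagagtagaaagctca
Haus5 promoter, chr7:30664945-30665244, minus strand: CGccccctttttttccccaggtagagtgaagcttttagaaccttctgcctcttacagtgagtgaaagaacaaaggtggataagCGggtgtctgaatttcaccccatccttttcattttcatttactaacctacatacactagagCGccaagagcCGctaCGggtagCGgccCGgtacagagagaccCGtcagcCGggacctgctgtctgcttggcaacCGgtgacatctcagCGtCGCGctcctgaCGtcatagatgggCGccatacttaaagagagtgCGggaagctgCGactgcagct
Sparc promoter, chr11:55420031-55420330, minus strand: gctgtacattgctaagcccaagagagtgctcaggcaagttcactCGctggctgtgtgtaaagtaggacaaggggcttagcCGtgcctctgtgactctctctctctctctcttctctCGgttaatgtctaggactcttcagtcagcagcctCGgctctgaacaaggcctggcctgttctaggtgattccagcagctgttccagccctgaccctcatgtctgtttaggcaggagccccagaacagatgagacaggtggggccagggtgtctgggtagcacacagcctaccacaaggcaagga
The Meis1 window, with 15 CpG dinucleotides, lay wholly inside its region, and so did that of Haus5, with 17. The Kirrel window held 28 CpG dinucleotides and was covered over 246 of its bases. The X-linked Efnb1 window held 14 and was covered over 188 bases, and the Sparc window held 4 and was covered over 103. Haus5 is shown because its region also overlapped an HDAC1 peak.

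As a check of the labelled cells, a gene was counted as marked when an H3ac peak lay at most 1 kb from either of its ends. Of 6 neural progenitor markers, 1 was marked on day 2 (Nes), 4 on day 4 (Sox1, Nes, Fabp7 and Zfp521) and 2 on day 6 (Fabp7 and Zfp521). Of 4 pluripotency genes, Pou5f1 and Nanog were marked on day 2 and on neither later day, and Zfp42 and Esrrb were marked on no day. Of the 17 markers of neurons, mesendoderm, trophoblast, extraembryonic endoderm and neural crest, 2 were marked on day 2 (Elavl3 and Sox10). None was marked on day 4 or day 6. The H3ac lists held 17357, 12943 and 5549 peaks on days 2, 4 and 6, with median widths of 591, 792 and 1898 bp in the same order. The part that depth played in these list lengths was not tested.

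The gained and kept regions were of middling width and score. Their median width was 712 bp, with a range of 286 to 7843 bp. Peaks of day 4 only had a median of 568 bp, those of all 3 days 1003 bp and those of days 2 and 4 866 bp. Their median authors' score in the day 4 list, a number of unstated scale that starts at 50, was 89.07, with a range of 50.04 to 1879.42. The medians were 60.32 for day 4 only, 168.065 for all 3 days and 114.61 for days 2 and 4. Members just inside the limits were the region at Ccne2, which shared 3 bp with a day 6 peak, and the one at Cplx2, 1 bp from a day 2 peak. Just outside were the peak at Anapc4, 9 bp from a day 6 peak, and the one at Eef1b2, which shared 1 bp with a day 2 peak.

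The strongest regions by day 4 score lay at Meis1 and Hoxb2. Meis1, a TALE homeodomain partner of Hox proteins, had the second-highest score of the whole day 4 list, 1879.42, in a peak of 7843 bp at chr11:19013381-19021223 (mm10) that spanned its start. The overlapping day 6 peak was 7682 bp wide with a score of 1092.64, rank 24 of the day 6 list, and the nearest day 2 peak was 5.74 kb away. Hoxb2, a hindbrain patterning gene, followed at chr11:96351748-96355234 with 1010.78 on day 4 (rank 31) and 1060.72 on day 6 (rank 26), and the nearest day 2 peak was 56.2 kb away.

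Other leading regions by day 4 score follow in order of their genes' roles. Cell surface and matrix genes were Kirrel, an adhesion protein of the immunoglobulin family (676.71), Lrp4, the agrin co-receptor (653.01), and Thbs3, a thrombospondin of the matrix (561.0). They also included Rgma, a repulsive guidance molecule that is a BMP co-receptor (527.04), and Cdh2, N-cadherin of neural epithelia (525.22). The region at chr2:29843755-29846484, over the ends of Cercam and Urm1 and the miR-219a hairpin, scored 693.07, and the Thbs3 region with Mir92b lay at chr3:89225211-89227459. Ccnd2, a D-type cyclin, scored 540.31, Zfp503, a zinc-finger transcriptional regulator, 510.66, and the kinase gene Nuak2 504.26. The day 6 peaks over them ranged from 692.48 at Zfp503 and 466.13 at Cdh2 to 111.92 at Kirrel and 98.99 at Lrp4. All 12 regions leading by day 4 score overlapped day 6 peaks that touched no day 2 peak, and none of the 12 overlapped an HDAC1 peak. Only 4.77% of all the regions overlapped an HDAC1 peak, so 0 of 12 does not set these apart.

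**Figure D1:**
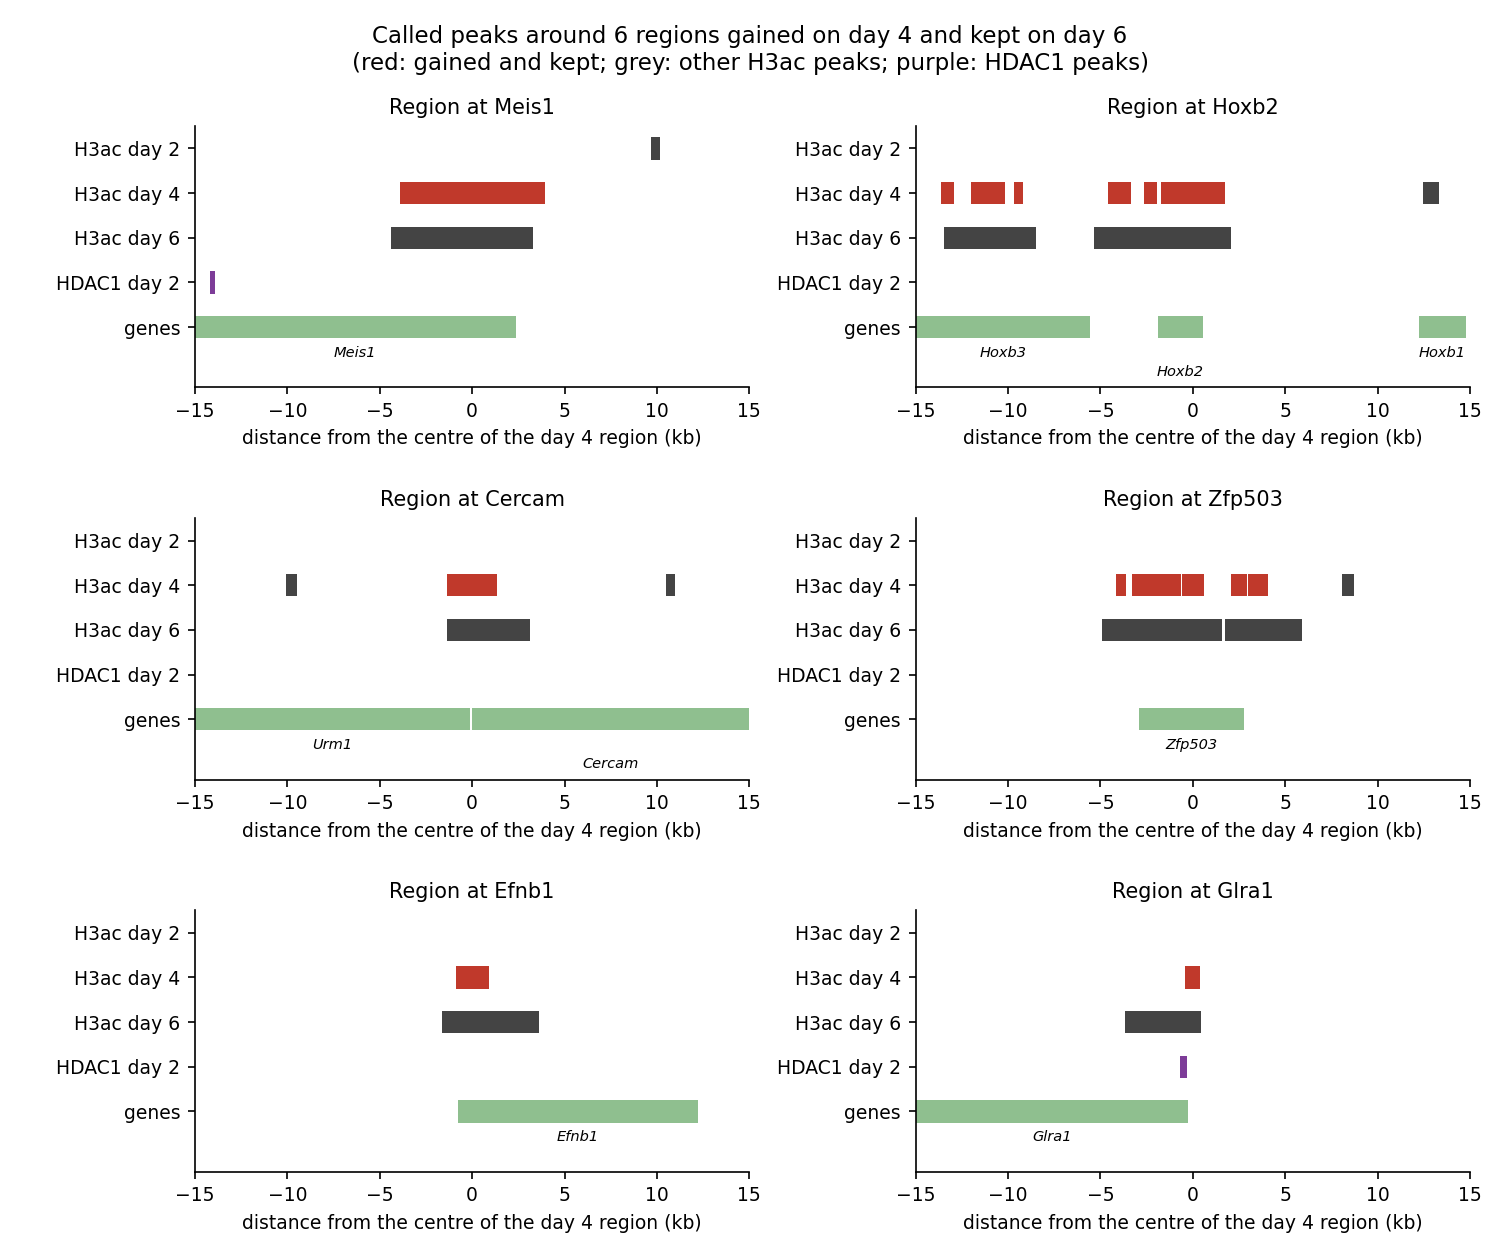
Called peaks around 6 gained and kept regions, drawn to scale as distance in kb from the centre of the day 4 region, with the 3 H3ac lists, the HDAC1 list and protein-coding genes in rows. Red bars are gained and kept regions; the Hoxb2 and Zfp503 panels hold several of them under wide day 6 peaks, and at Glra1 an HDAC1 peak overlaps the region.

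Several genes held clusters of these regions, which are not independent of each other because neighbouring regions often shared 1 day 6 peak. Hoxb3 and Hoxa3 each had 7 regions in the gene or within 10 kb, Hoxb2 and Meis2 had 6, Zfp503 and Nr2f2 had 5, and Nr6a1, Hoxa2 and Epha7 had 4. Neighbouring genes were counted with the same regions: all 6 of Hoxb2 were among the 7 of Hoxb3, and all 4 of Hoxa2 among the 7 of Hoxa3. At the 3' Hoxb genes, 3 of the regions, with scores of 296.62, 55.96 and 1010.78, lay under a single day 6 peak of 7413 bp. Zfp503 showed the same layout, with day 4 regions of 89.28, 293.46 and 510.66 under a day 6 peak of 6515 bp, and 2 further regions, of 63.02 and 119.97, under the next one. In the Hoxa cluster, the strongest region, at Hoxa2, scored 337.45 on day 4 with 573.29 for its day 6 peak. Nr2f2 and its paralogue Nr2f1 encode orphan nuclear receptors of neural progenitors, and their strongest regions scored 158.4 and 223.23. Nr6a1, an orphan nuclear receptor that represses pluripotency genes, held its regions inside the gene, with day 4 scores of 54.4 to 94.51 and day 6 scores of 235.88 and 762.93.

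The regions overlapped 980 day 6 peaks, 17.7% of the day 6 list, and 84.2% of the regions lay wholly inside day 6 peaks. Of these day 6 peaks, 884 held 1 region, 81 held 2 and 15 held 3 or more. For 665 regions, 61.0% (58.0 to 63.8%), the day 6 peaks touched no day 2 peak. For the other 426, the wider day 6 peak also reached a day 2 peak beside the region, so acetylation was called next to it on day 2. A day 2 peak lay within 1 kb of 482 regions. Regions of both kinds had similar shares at gene ends, 54.9% and 54.2%, and their median day 4 scores were 94.82 and 81.145.

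The strongest day 6 peaks over the regions did not always go with a strong day 4 peak. Cdon, a Hedgehog co-receptor, had the highest, 1628.53 (rank 6 of the day 6 list), over a day 4 region of 192.16 at chr9:35421774-35422959. Rabggtb, which encodes a subunit of Rab geranylgeranyl transferase, had 1446.05 over a day 4 region of only 54.67, 0.212 kb from a day 2 peak. Meis2 had 2 such peaks, 1315.69 near a gene start and 1004.58 past its other end, over day 4 regions of 138.53 and 183.4. Sox2, the SoxB1 factor of pluripotent and neural progenitor cells, had its day 6 peak of 1070.72, 10001 bp wide, over a region of 56.17 that lay 3.98 kb from the gene and 2.19 kb from a day 2 peak. The region inside the retinoblastoma gene Rb1, at an end of the lysophosphatidic acid receptor gene Lpar6, scored 80.65 on day 4 and 1173.47 on day 6. Gja1, encoding the gap junction protein connexin 43, scored 88.38 on day 4 and 947.93 on day 6, and its region shared 7 bp with the day 6 peak.

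**Figure D2:**
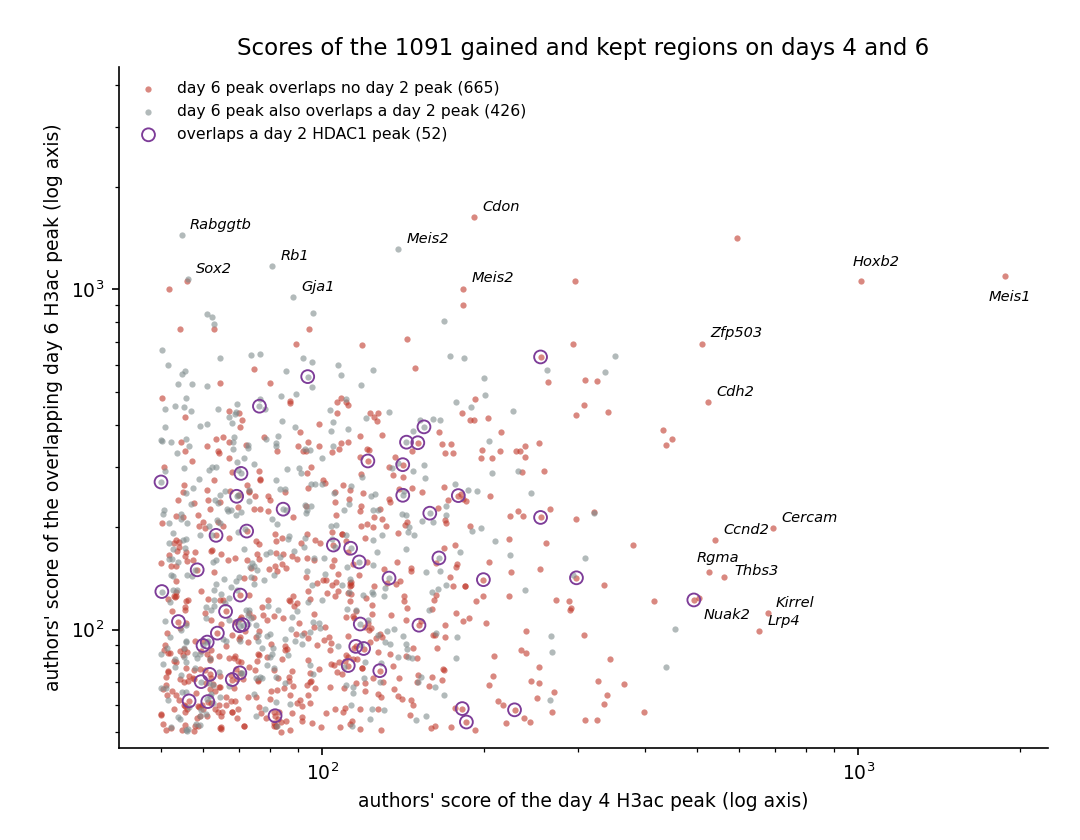
Authors' scores of the 1091 regions on day 4 (x axis) and of the overlapping day 6 peak (y axis), both on log axes, 1 point per region, with some of the highest on either day named. Red points (665) have day 6 peaks that touch no day 2 peak, grey points (426) have day 6 peaks that also reach one, and rings mark the 52 regions that overlap an HDAC1 peak. Meis1 and Hoxb2 are high on both days.

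In all, 750 protein-coding genes had one of these regions within 1 kb of a gene end, 3.47% of 21631, and 1256 had one in the gene or within 10 kb, 5.81%. Of the 750, 359 had no day 2 H3ac peak at either end, and 391 had one. The counts for the gene lists below are set beside these 2 shares of all genes, and the lists were chosen with earlier results known, so none is a test. Peaks of day 4 only marked 1417 of the 21631 genes at an end. Among them were 9 of 39 Hox, 10 of 44 Wnt, 6 of 27 neural progenitor, 3 of 23 BMP and 1 of 11 TALE genes. Each of these shares was above that of 1417 in 21631, and the TALE share rests on 1 gene. Several of these lists were thus also marked by peaks that were not kept.

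The TALE and neural progenitor lists had the highest shares of the 22. Among 11 TALE genes, 3 were marked at an end, 27.3%, among them Meis1 and Meis2, and Pbx2 had a region within 10 kb that was nearest to Notch4. Among 27 neural progenitor genes, 5 were marked at an end, 18.5%, and 7 had a region within 10 kb. The neural progenitor regulator Zfp521 scored 335.84, and the RNA-binding progenitor protein gene Msi1 scored 288.91. Of 39 Hox genes, 5 were marked at an end, 12.8%, among them Hoxb2, Hoxb3, Hoxa2 and Hoxa3 of the 3' part of their clusters. Of 26 midbrain, hindbrain and spinal cord genes, 3 were marked at an end, 11.5%, and 5 had a region within 10 kb. These were the Iroquois genes Irx2 (325.32), Irx3 (245.02) and Irx5 (63.28), Pax7 and the hindbrain gene Egr2, whose region (160.5) lay inside the neighbouring gene Ado, 5322 bp from Egr2. Inside Zic1, at the end next to Zic4, both zinc-finger genes of the dorsal neural tube, a region scored 238.49 on day 4 and 322.26 on day 6. None of the 21 forebrain and eye field genes had a region at an end or within 10 kb, and none of 11 neural crest genes had one. Beside 3.47 and 5.81% of all genes, lists this short do not stand apart by holding none. In the mesendoderm list 1 of 26 genes was marked at an end, the chemokine receptor gene Cxcr4 (454.63), and in the extraembryonic and trophoblast list 1 of 20, Sparc (265.9), which is also in the matrix list. Both shares, 3.85% and 5%, were near the 3.47% of all genes. Of the genes marked at an end and named in this paragraph, Meis2, Hoxa2, Irx3, Irx5 and Cxcr4 also had a day 2 peak at an end.

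Receptors and targets of several signalling pathways were marked. Of 44 Wnt pathway genes, 6 were marked at an end, 13.6%, of which 5 were Frizzled receptors (Fzd10, Fzd3, Fzd7, Fzd6 and Fzd2) and the other was Ryk, a Wnt co-receptor. Fzd10 scored 436.74 on day 4 and 77.5 on day 6, while Fzd3 scored 183.26 on day 4 and 900.06 on day 6, rank 46. In the BMP list, 4 of 23 genes were marked, 17.4%: the BMP targets Id2 (272.78) and Id1 (171.77), the receptor Bmpr1b (147.66) and the signal transducer Smad1 (68.2). Id1 and Id2 encode inhibitors of basic helix-loop-helix factors and had no day 2 peak at an end. In the Notch and proneural list, 3 of 32 were marked at an end: the same Id1 and Id2, and Notch3 (52.23). Retinoic acid genes had 2 of 22, Crabp2, a retinoic acid binding protein (236.61), and Rdh10, an enzyme of retinoic acid synthesis (55.58). Of 25 FGF genes, only Fgfr1 was marked at an end (293.13), 4%, near the 3.47% of all genes, and Fgfr2 had a region inside the gene (87.72). Of the genes of this paragraph, Fzd10, Fzd7, Fzd2, Smad1, Notch3, Rdh10, Fgfr1 and Fgfr2 also had a day 2 peak at an end.

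Genes of axon guidance and adhesion were also marked. Of 63 axon guidance genes, 5 were marked at an end, 7.94%. They were Efnb1 (297.21), Epha7 (232.14) and Efna5 (180.97) of the ephrin family, the semaphorin receptor Plxna2 (270.19) and the semaphorin Sema3c (138.31). In the list of cadherins and adhesion genes, 2 of 29 were marked at an end, 6.90%: Cdh2 and the integrin gene Itgb1 (53.73). Cdh2 had 3 regions, all at its ends, and the nearest day 2 peak was 1660 kb away. Epha7, Efna5, Sema3c and Itgb1 also had a day 2 peak at an end, whereas Efnb1, Plxna2 and Cdh2 had none. Collagens and matrix genes had 2 of 31, Col2a1 (327.31) and Sparc (265.9). No gene of the 31 in the neuron and synapse list was marked at an end, against 3.47% of all genes. In that list 1 gene, Elavl2, had a region inside it, which was also an HDAC1 site.

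By location, 54.6% of the regions (51.7 to 57.6%) had their midpoint within 1 kb of a protein-coding gene end, 37.2% lay in gene bodies and 8.16% outside genes. The gene-end share was 33.1% (31.6 to 34.6%) for peaks of day 4 only, 71.6% for all 3 days and 73.4% for days 2 and 4, against 60% of all day 4 peaks. The gained and kept regions thus stood between the peaks called on a single day and those already present on day 2, and none of these intervals overlapped theirs. The share depends on the window, since it was 25.7% with 0.5 kb and 78.1% with 2.5 kb.

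Among day 4 peaks within 5 kb of a gene start, a smaller share of the regions than of the other classes lay close to it. Of the 781 within 5 kb of a RefSeq gene start, 69.9% lay downstream of it, and the median midpoint was 508 bp into the gene, against 318, 454 and 353 bp for day 4 only, all 3 days and days 2 and 4. Within 500 bp of the start lay 34.7% of these 781 (31.4 to 38.1%). In the other 3 classes, also within 5 kb, it was 47.0% (44.4 to 49.5%), 43.6% (42 to 45.2%) and 60.8% (59.0 to 62.6%). Of all peaks off chromosome 18, 271 of 1055 regions lay within 500 bp, against 680 of 3476, 1625 of 4533 and 1688 of 3509. By that count the regions stood above day 4 only and below both classes with a day 2 peak. The positions of the 781 regions had a peak on either side of the start: 12.8% of them fell 250 to 500 bp before the start and 17.9% fell 500 to 750 bp after it, with 2.30% in the 250 bp before the start. Peaks of day 4 only had the same shape, with 10.4% at 250 to 500 bp before the start, 4.49% in the 250 bp before it and 20.8% at 250 to 500 bp after it. A smaller dip was also present in the classes that overlap day 2 peaks. In the same bins before the start, peaks of all 3 days had 7.45 and 4.4%, and those of days 2 and 4 had 7.24 and 6.05%. From 500 to 2000 bp into the gene lay 44.6% of the 781 regions (41.1 to 48.1%), against 25.6%, 44.3% (42.7 to 45.9%) and 28.9% of the peaks within 5 kb in the other 3 classes. The share was thus close to that of peaks of all 3 days. A region cannot overlap a day 2 peak, so a dip set by the choice of regions and one of their own cannot be told apart.

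**Figure D3:**
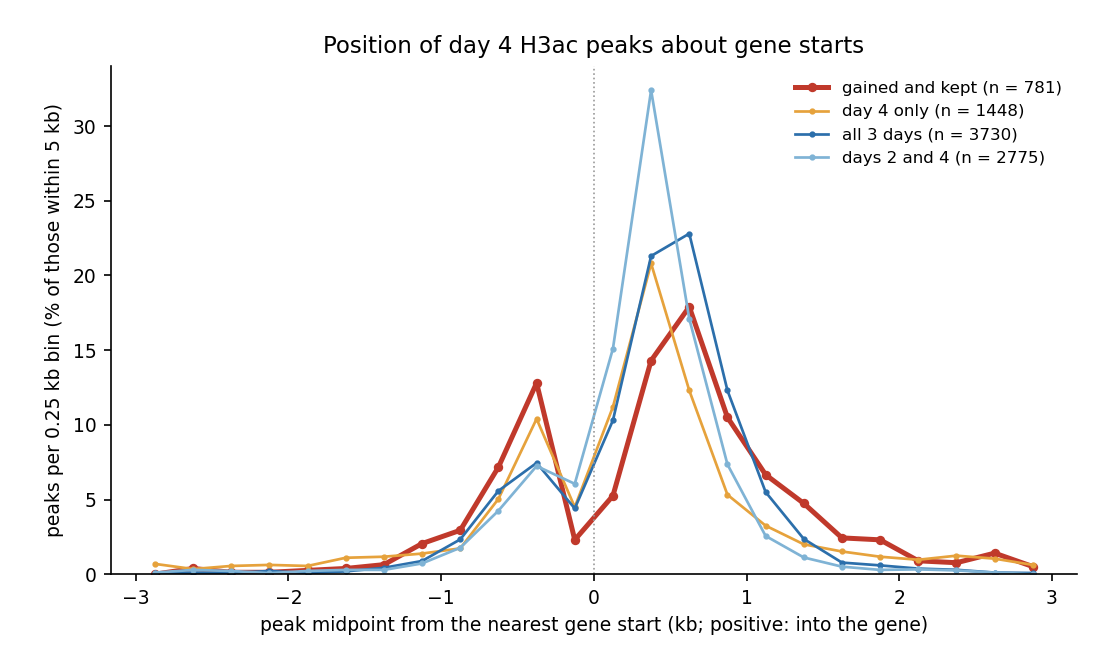
Position of day 4 H3ac peaks about the nearest RefSeq gene start, as percent of the peaks within 5 kb that fall in each 0.25 kb bin (x axis in kb, positive into the gene), 1 line per class. The gained and kept regions (thick red line, 781 regions) have a lower share next to the start and higher shares on both flanks than peaks of days 2 and 4.

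HDAC1 peaks of day 2 rarely covered these regions. Of the 1091, 52 overlapped an HDAC1 peak by at least 1 bp, 4.77% (3.65 to 6.20%). The share was 3.43% (2.88 to 4.08%) for day 4 only, 14.2% (13.2 to 15.2%) for all 3 days and 13.8% (12.7 to 14.9%) for days 2 and 4, against 10.3% of all day 4 peaks. HDAC1 was measured on day 2, and the choice leaves out peaks with H3ac called on that day. A gap to the classes with a day 2 peak thus cannot be told apart from the choice of regions. With the 3 H3ac lists held to equal numbers of top-scoring peaks, the gained and kept share was 8.89% (7.34 to 10.7%), below the 13.5% (11.4 to 15.9%) of day 4 only. Within 1 kb of an HDAC1 peak lay 9.62% of the regions, against 6.03, 20.4 and 18.5% in the same 3 classes. At gene ends the share was 5.20% (3.69 to 7.29%), against 7.84% (6.44 to 9.51%), 14.6% and 15.4%. In gene bodies it was 3.45% (2.06 to 5.70%), against 1.28% (0.828 to 1.96%), 13.2% and 9.14%. Regions with a day 2 H3ac peak within 1 kb overlapped HDAC1 in 5.81% of cases (4.05 to 8.27%), and those without one in 3.94% (2.66 to 5.80%).

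The HDAC1 share was also set against the strength and width of the day 4 peak, with no test of whether the classes differ in this. The day 4 list was split by score into 4 groups of 25% each. From the lowest to the highest group the share was 4.33, 3.67, 5.94 and 5.88% in the gained and kept regions. It was 1.77, 4.21, 8.63 and 13.2% in day 4 only peaks, 6.14, 10.1, 11.8 and 18.4% in those of all 3 days, and 7.93, 9.77, 15.2 and 20.1% in those of days 2 and 4. In the highest group 8 of 136 gained and kept regions overlapped HDAC1, an interval of 3.01 to 11.2%. In that group the intervals were 7.71 to 21.6% for day 4 only, 16.8 to 20.1% for all 3 days and 17.6 to 22.9% for days 2 and 4. The first of these intervals overlaps that of the gained and kept regions and the other two do not. By width, from the narrowest to the widest 25% of day 4 peaks, the gained and kept share was 3.41, 4.55, 5.51 and 6.58%, and the interval of the narrowest group (1.86 to 6.17%) overlaps that of the widest (3.61 to 11.7%). In the widest group the other 3 classes had 11.6, 19.2 and 19.8%. The 52 regions with an HDAC1 overlap had a median day 4 score of 108.36, against 88.44 for those without one.

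**Figure D4:**
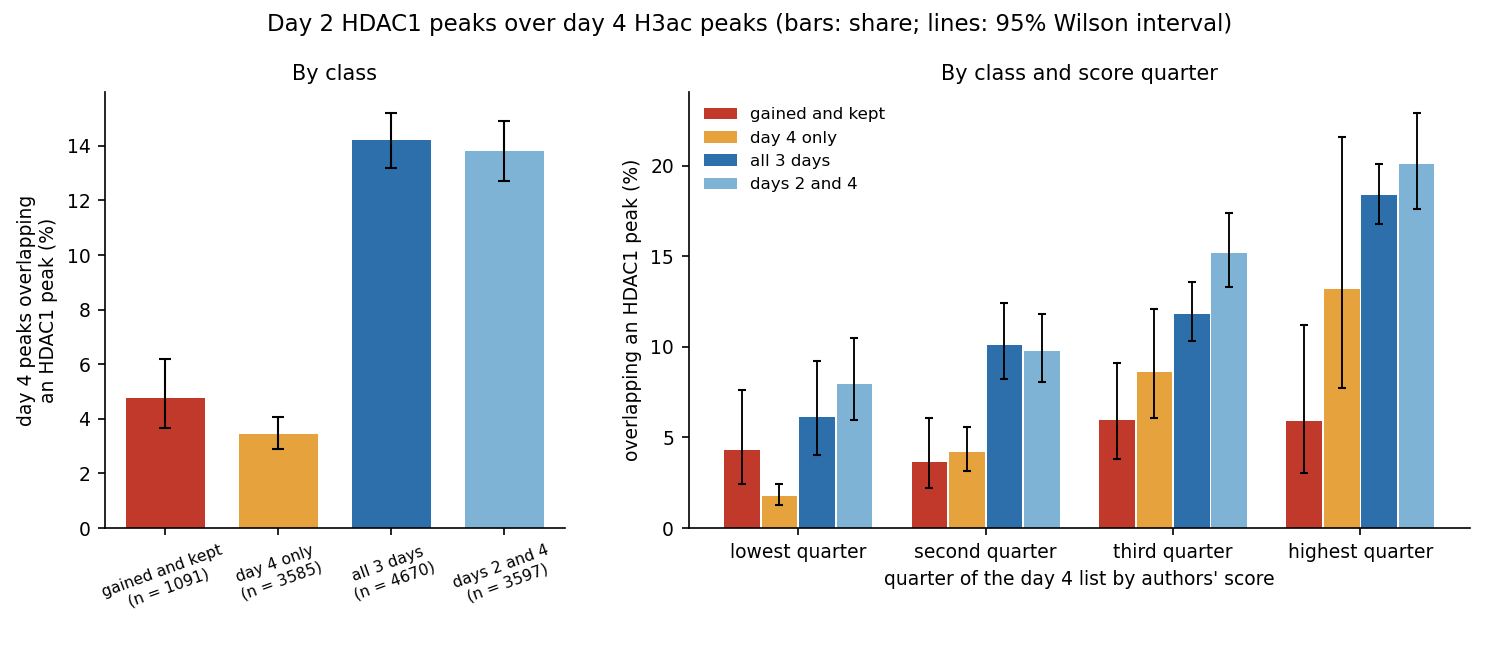
Percent of day 4 H3ac peaks that overlap a day 2 HDAC1 peak by 1 bp or more, by class (left) and by class within each 25% of the day 4 list by authors' score (right), with 95% Wilson intervals as lines. In the highest-scoring 25% the gained and kept regions stand at 5.88%, against 13.2, 18.4 and 20.1% in the other classes. The classes differ by choice in whether a day 2 H3ac peak is present.

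The HDAC1 peaks under the regions were mostly among the lower-scoring ones. Their median score was 59.285, against 65.34 for the whole HDAC1 list, and 18 of the 52 stood among its highest-scoring 50%. The strongest by far was the HDAC1 peak at Glra1, which encodes a subunit of the inhibitory glycine receptor, with a score of 1211.63 and rank 35. It lay at chr11:55607769-55608122, at the edge of a region of 104.9 on day 4 under a day 6 peak of 177.26, and the nearest day 2 H3ac peak was 128 kb away. The next were at Zswim8 (193.63), a ubiquitin ligase component, and Synj1 (179.93), the synaptic phosphatase synaptojanin. They were followed by Slmap (132.27), the brain carnitine palmitoyltransferase gene Cpt1c (116.5), the deubiquitinase gene Josd1 (112.45) and the phosphoprotein gene Pea15a (105.26). The dynein light chain gene Dynll2 (99.45), the spindle protein gene Haus5 (97.95) and the phosphatase gene Ptpn13 (94.33) completed the 10 highest. Of the others, Slmap, Cpt1c, Pea15a, Dynll2 and Haus5 had no day 2 H3ac peak within 9 kb, whereas Zswim8, Synj1, Josd1 and Ptpn13 had one within 1 kb. Counted by gene, 89 of the 750 genes marked at an end also had an HDAC1 peak at an end, 11.9% (9.74 to 14.4%), against 14.3% (12.5 to 16.2%), 20.8% and 21.5% for genes marked by the other classes and 9.51% of all genes. Among the 359 without a day 2 H3ac peak at an end it was 7.52%, and among the other 391 it was 15.9%.

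Promoters under the regions were rich in CpG. Of the marked genes off chromosome 18, 82.6% had a promoter in the RefSeq table, and 330 promoters overlapped a region. An observed over expected CpG ratio above 0.6 was found in 81.2% of them (76.6 to 85.1%), against 69.0% (65.5 to 72.2%) for day 4 only, 89.0% (87.7 to 90.2%) for all 3 days and 83.6% (82.0 to 85.0%) for days 2 and 4. It was found in 48.1% of all promoters of the table. The Sox motif ACAATGG, on either strand, occurred in 12 of the 330 promoters, 3.64% (2.09 to 6.25%), against 2.94% of all promoters. In the other classes it occurred in 1.40% (0.765 to 2.57%), 1.55% (1.14 to 2.1%) and 1.38% (0.972 to 2.1%), and each of these intervals overlaps that of the 330. The Meis motif TGACAG occurred in 14.8% (all promoters 18.3%), the homeodomain motif TAATTA in 2.73% (4.47%), the Sox motif ACAAAG in 12.7% (16.8%), the E-box CAGCTG in 13.9% (15.7%), the RFX motif GTTGCCA in 3.03% (4.22%) and the Sp motif CCGCCC in 70.0% (46.7%). The share with the Sox motif ACAAAG was 13.2, 12.8 and 11.8% in the other 3 classes. The share with CCGCCC was 70.2, 66.4 and 68.1% in the other 3 classes, so it was above that of all promoters in each class. Of the printed promoters, Haus5 held 1 match each to ACAAAG and GTTGCCA, Kirrel 1 to CCGCCC and Sparc 1 to CAGCTG, and those of Meis1 and Efnb1 held no match to any of the motifs.

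The regions were found on all chromosomes counted, and the intervals of 4 chromosomes left out the overall share of 8.43%. The shares of X and chromosome 13 were above it and those of chromosomes 15 and 7 below it. On X, 35 of 194 day 4 peaks were gained and kept, 18.0% (13.3 to 24.1%), and on chromosome 13, 72 of 554, 13% (10.4 to 16.1%). The lowest shares were 4.95% (3.40 to 7.16%) on chromosome 15 and 5.73% (4.39 to 7.43%) on chromosome 7. The X held 3.21% of the gained and kept regions (2.32 to 4.43%), against 1.00% (0.726 to 1.39%) of day 4 only peaks, 1.84% (1.49 to 2.27%) of those of all 3 days and 1.03% of those of days 2 and 4, and 1.5% of all day 4 peaks. The lists themselves differ in the same direction, with 1.61% of day 2, 1.5% of day 4 and 3.60% of day 6 peaks on X. On X, 32 of the 35 regions overlapped day 6 peaks that touched no day 2 peak, 91.4% (77.6 to 97%), against 59.9% on the autosomes. None of the 35 overlapped an HDAC1 peak, against 4.77% of all the regions, and 0.454% of HDAC1 peaks lay on X. The strongest was at Efnb1, an ephrin ligand (297.21). Other X-linked regions, named after their values were seen, were at the leucine zipper gene Tsc22d3 (193.77), Med14 of the Mediator complex (133.87), Dlg3, a synaptic scaffold (131.33), and Fmr1, an RNA-binding translational regulator (117.35).

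On chromosome 13 the regions were concentrated in a stretch of histone and tRNA genes, a pattern looked at after the values were seen. From 21 to 24 megabases of chromosome 13, 26 of 91 day 4 peaks were gained and kept, 28.6% (20.3 to 38.6%), and on the rest of the chromosome 9.94% were. Of these 26, 16 lay within 500 bp of a tRNA gene, and 18 lay outside protein-coding genes. Genome-wide, 22 of the 89 gained and kept regions outside protein-coding genes lay within 500 bp of a tRNA gene, 24.7% (16.9 to 34.6%). This was the case for 2.04% (1.28 to 3.24%) of day 4 only peaks, 18.7% (13.2 to 25.7%) of those of all 3 days, 9.43% (6.19 to 14.1%) of those of days 2 and 4 and 6.78% of all day 4 peaks outside genes. The interval for the gained and kept regions thus lies above those for day 4 only and for days 2 and 4, and overlaps that for all 3 days. With tRNA genes counted when covered by the peak, the shares were 10.1% (5.41 to 18.1%), against 0.840% (0.408 to 1.72%), 10.7% (6.67 to 16.6%) and 4.72% (2.58 to 8.46%), so the interval then overlaps that for days 2 and 4 too. Counting all locations, 25 regions lay near a tRNA gene, and 9 of them covered such a gene. None of the 25 overlapped an HDAC1 peak, against 4.77% of all the regions, and so few do not stand apart by this. The highest score, 226.39, was at n-TGtcc7 and n-TEctc13 on chromosome 3, the genes of a glycine and a glutamate tRNA. Such genes have near-identical copies, and how the authors' alignment treated reads shared by copies was not tested.

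**Figure D5:**
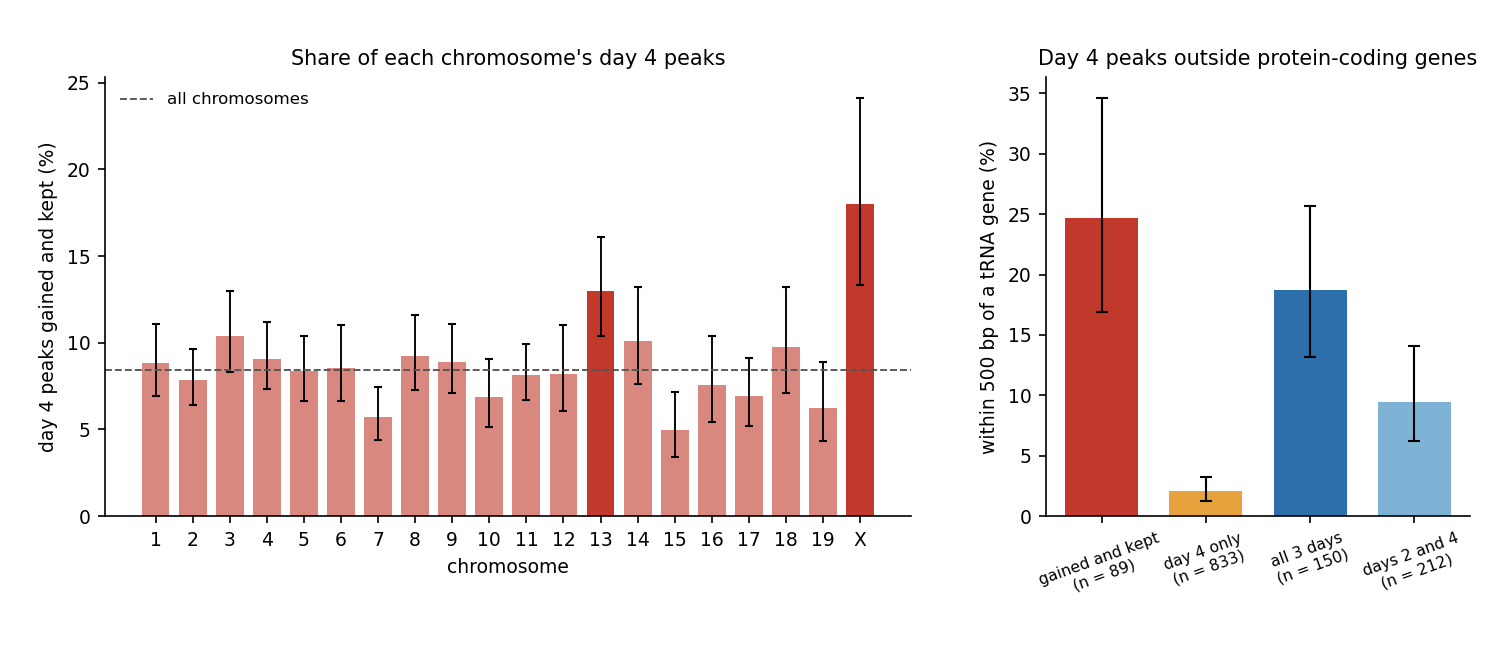
Left, percent of each chromosome's day 4 H3ac peaks that are gained and kept, with the share over all chromosomes as a dashed line (8.43%). Right, percent of day 4 peaks outside protein-coding genes that lie within 500 bp of a tRNA gene, by class. Lines are 95% Wilson intervals; X (18.0%) and chromosome 13 (13%) stand highest.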

How the data were processed

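ChIP-seq libraries of H3ac (days 2, 4 and 6) and of HDAC1 (day 2) were used, with groups and days taken from the labels. The submitters' processing notes name the aligner Bowtie 0.12.8 and the genome build mm10. Each deposited list gave the peaks of 1 ChIP library with a score per peak made by the authors, starting at 50. Peak names begin with MACS, a peak caller. Not given in the sources used here are the caller's version, its threshold, how input was used and the score's scale, so scores only rank peaks within a list. Read depths were not used here, and a missing peak does not show missing acetylation.

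Peaks on chromosomes 1 to 19 and X (41131 in the 4 lists) counted as shared from an overlap of 1 bp, computed with Python 3.11.15, numpy 2.4.6 and pandas 2.3.3, and the overlap code was tested on 4000 simulated peaks, of which 4000 returned to their class. Figures used matplotlib 3.10.9. Genes, tRNA genes, promoters and miRNAs are from RefSeq tables of GRCm38.p6, and its coordinates are those of mm10. The gene table gives no strand or exons, so both gene ends were used, and exons, introns and UTRs were not told apart. The promoter table used here covers chromosomes 1 to 17, 19 and X. Shares have 95% Wilson intervals (scipy 1.17.1). Coordinates are 1-based.

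The regions and the 22 gene lists were chosen with earlier results of these data known. Genes were named by rule: the 12 regions highest by day 4 score, 10 by day 6 score and 10 by HDAC1 score, the 5 widest, genes with 4 or more regions within 10 kb, up to 4 per gene list, and the regions nearest each limit. Some genes that this rule names are not reported here. Sema3c, Fzd6, Fzd2, Pax7, Rpl10a, the miRNAs and the tRNA regions were named after their values were seen. The alternatives tried changed the overlap, the distance to day 2 peaks, score limits, list lengths and windows.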

Additional observations from a re-analysis of the deposited data

How the results depend on the processing

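There was 1 library per target and day, so what the shares owe to sampling of libraries is unknown, and peak numbers follow depth and cut-off, which were not used here. No paired analysis was possible because no group has a second library. Of 28 alternatives, 16 left the value within its interval or within 1.5 times the count, among them at least 50% of the region covered on day 6 (1059 regions, 4.91% with HDAC1, 55.2% at gene ends, 735 genes). The number of regions became 609 without a day 2 peak within 1 kb, 456 in the highest-scoring 50% of the day 4 list and 665 without day 6 peaks that reach a day 2 peak, a setting added after seeing the data. The genes marked at an end became 371, 337 and 434 under these. With equal numbers of top-scoring peaks in each list (5549), 1091 regions were again found, but 345 of them were the same, with 8.89% over HDAC1 and 61.9% at gene ends. In that setting the other classes had 13.5, 18.3 and 19.9% over HDAC1, so the order against day 4 only was turned round, and the cause was not tested. The HDAC1 share became 9.62% within 1 kb and 1.65% for the highest-scoring 50% of the HDAC1 list, against 1.73% for day 4 only. The gene-end share became 25.7% with a window of 0.5 kb and 78.1% with 2.5 kb.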

Other observations

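Genes of general cell functions were also counted, beside the shares of all genes, 3.47% at an end and 5.81% within 10 kb. Of 49 chromatin regulators, 4 were marked at an end (8.16%) and 7 had a region within 10 kb (14.3%). Ezh2, the methyltransferase of Polycomb repressive complex PRC2, scored 143.59 on day 4 and overlapped an HDAC1 peak of 86.49. Tet2, which oxidises methylated cytosine, scored 133.08, and the acetyltransferase gene Kat6b scored 126.8. Ezh2, Tet2 and Kat6b each had a day 2 peak at an end as well. A region with a score of 138.31 lay 1243 bp from the gene Hdac1 itself, nearest to Marcksl1. Of 70 cytosolic ribosomal protein genes, 3 were marked at an end (4.29%), near the share of all genes. They were Rpl35 (62.86), Rps2 (62.55) and Rpl10a (52.64), each with a day 2 peak at an end as well. In the pluripotency list, Tet2 was the single gene of 25 marked at an end (4%, against 3.47% of all genes), and Sox2 had a region within 10 kb. Lin28a had 2 regions in the gene or within 10 kb. That of 130.4 lay inside the gene, and that of 167.53 was nearest to Dhdds. None of 1110 olfactory receptor genes was marked at an end, and 1, Olfr311, had a region within 10 kb.

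The following HDAC1 sites below the 10 highest were named after their values were seen. They were picked from the 52, and the share of neural genes among the 52 was not counted. Rfx4, a factor of the dorsal neural tube, had an HDAC1 score of 82.38 with a region of 70.54 on day 4 and a day 6 peak of 287.87. Dpysl5, an axon guidance mediator, had an HDAC1 score of 70.3 with a region of 297.92. Ier5, an immediate early gene, had the strongest day 4 region over any HDAC1 site, 493.16, and an HDAC1 score of 76.4.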
